A study of Mus musculus with 2 samples.

Results

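Twist1, Twist2, Prrx1, Prrx2, Alx1 and Alx4 are 6 transcription factor genes known from the mesenchyme of the developing face, and their transcripts were counted in single cells of the embryonic day (E) 9.5 mouse mandibular arch. The members were taken by gene symbol, and all 6 were found among the 31053 genes of the E9.5 matrix. The E9.5 library was made from whole mandibular arches of 8 pooled K14Cre;R26mT/mG embryos of 1 litter, dissociated without sorting, and it holds both epithelium and mesenchyme. A further library holds GFP+ epithelial cells sorted from E12.0 mandibles of 6 pooled embryos of the same genotype. In this genotype the keratin 14 promoter drives Cre, which switches the R26mT/mG reporter from membrane Tomato to membrane GFP in epithelium, so the E12.0 sort removes mesenchyme while the E9.5 collection does not. Neither library had a treatment. Each stage has 1 library, so no difference below has a replicate check and no test between samples was possible. Intervals are exact 95% intervals and cover counting error only.

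Twist1 and Twist2 are basic helix-loop-helix (bHLH) factors that bind DNA as dimers with E proteins such as Tcf3, Tcf4 and Tcf12, and Id proteins compete for those partners. Twist1 is needed in cranial neural crest and in the mesoderm of the head. Prrx1 and Prrx2 are paired-related homeodomain factors of facial and limb mesenchyme, and Alx1 and Alx4 are aristaless-like homeodomain factors known mostly from the frontonasal region. In the mandibular arch, neural crest mesenchyme surrounds a core of mesoderm that gives rise to the jaw muscles, and an ectodermal and endodermal epithelium covers both. Hand2 is a bHLH factor that marks the distal part of the arch, Sox10 marks migrating and glial neural crest, and Pdgfra encodes a receptor of the mesenchyme.

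The kept E9.5 cells had 200 to 5500 genes and at most 10% mitochondrial transcripts. They numbered 12744 of 14293 barcodes and held a median of 13460.5 unique molecular identifiers (UMIs, counted transcript molecules), from 500 to 40102. Mesenchyme was gated as cells with at least 1 Pdgfra UMI and no Epcam UMI and came to 2582 cells. Of these, 250 had 2 or more Hand2 UMIs, 263 had 1 and 2069 had none, and 773 had a Sox10 UMI. The mesoderm core gate took 693 cells without Epcam, Sox10, Cdh5 or Pecam1 that carried at least 2 of the 5 markers Tcf21, Msc, Myf5, Tbx1 and Lhx2. It overlapped the mesenchyme gate by 48 cells, of which 35.4% were called doublets, against 2.60% of all kept cells. Epcam-positive cells numbered 4816, and 3321 of them had at least 2 Epcam UMIs and no Pdgfra, the strict epithelial gate. Vascular (313 cells) and erythroid (56 cells) gates served as references for free RNA. The erythroid gate excluded cells with a Pdgfra UMI, but the vascular gate did not. A remainder of 3591 cells without a Sox10 UMI fell in no gate and had a median of only 5438 UMIs. Their Twist1 level, 590.4 UMIs per 1000000 UMIs of the gate (CPM), is given because the Pdgfra gate cannot see cells in which no Pdgfra UMI was caught. Not in that remainder are 778 cells with a Sox10 UMI but no Epcam or Pdgfra UMI, where Twist1 was at 703 CPM. They also lie outside the mesenchyme gate and its division by Sox10. Of all barcodes, 51 occur in both libraries, and 44 of these were kept in each.

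The 6 genes form pairs of relatives, whose reads must be told apart before their levels are compared. The stretches of 90 coding bases most alike between relatives are shown here because they bound how far reads of each pair could be confused. They come from GENCODE M21 transcripts on GRCm38, are written 5′ to 3′ on the coding strand, and differ from the relative at the bases in capitals. The Twist1 stretch is at chr12:33958324-33958413 (plus strand, exon 1 of 2) and that of Twist2 at chr1:91801835-91801924 (plus strand, exon 1 of 2). The Prrx1 stretch is at chr1:163261875-163261964 (minus strand, exon 2 of 4) and that of Prrx2 at chr2:30878467-30878556 (plus strand, exon 2 of 4). The Alx1 stretch is at chr10:103025188-103025277 (minus strand, exon 3 of 6) and that of Alx4 at chr2:93668523-93668612 (plus strand, exon 2 of 4).
Twist1: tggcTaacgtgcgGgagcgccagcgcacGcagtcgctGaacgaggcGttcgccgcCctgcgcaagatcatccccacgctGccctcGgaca
Twist2: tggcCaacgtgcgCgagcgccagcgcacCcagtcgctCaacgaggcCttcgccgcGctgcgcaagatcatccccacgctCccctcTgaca
Prrx1: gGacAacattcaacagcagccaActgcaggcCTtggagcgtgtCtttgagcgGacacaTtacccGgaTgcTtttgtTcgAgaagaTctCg
Prrx2: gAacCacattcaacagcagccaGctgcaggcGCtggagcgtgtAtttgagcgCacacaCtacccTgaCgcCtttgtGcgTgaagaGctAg
Alx1: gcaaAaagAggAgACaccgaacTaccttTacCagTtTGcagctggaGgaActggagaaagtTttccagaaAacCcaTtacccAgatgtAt
Alx4: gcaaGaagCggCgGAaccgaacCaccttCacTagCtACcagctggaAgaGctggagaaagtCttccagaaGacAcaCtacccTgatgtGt
Twist1 and Twist2 differ at 8 of the 90 bases, Prrx1 and Prrx2 at 15, and Alx1 and Alx4 at 19. The longest run shared without a mismatch in the coding sequence is 23 bases for the Twist pair and 19 for each of the other pairs. The library primes from the 3′ end of the transcript, and in the last 500 bases the longest shared run is 12 bases for Twist, 8 for Prrx and 9 for Alx. Twist1 lies at chr12:33957671-33959829, Twist2 at chr1:91801461-91848028, Prrx1 at chr1:163245119-163313710, Prrx2 at chr2:30834972-30881251, Alx1 at chr10:102998707-103030215 and Alx4 at chr2:93642384-93681339.

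At full depth, Twist1, Prrx1 and Prrx2 were detected in nearly every cell of the mesenchyme gate, and in fewer cells after thinning. Twist1 stood at 719.6 CPM (interval 711.8 to 727.4) and had a UMI in 98.1% of mesenchymal cells. Prrx1 stood at 318 CPM (312 to 323) with a UMI in 94.4% of cells, and Prrx2 at 345 CPM (340.0 to 351) with a UMI in 94.8%. The other members were sparse. Alx1 had 13.6 CPM and a UMI in 20.4% of mesenchymal cells, Twist2 had 4.16 CPM and a UMI in 6.47%, and Alx4 had 28 UMIs in 2582 cells, or 0.616 CPM. With every cell thinned to 6000 UMIs, which 2541 of the mesenchymal cells allowed, the share of cells with a UMI was 96.0% for Twist1, 78.7% for Prrx1, 80.1% for Prrx2 and 7.99% for Alx1. At that depth Twist1 had a median of 4 UMIs a cell with at least 80% of cells between 1 and 8. The median was 2 for Prrx1 and for Prrx2, with at least 80% of cells between 0 and 4.

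**Figure D1:**
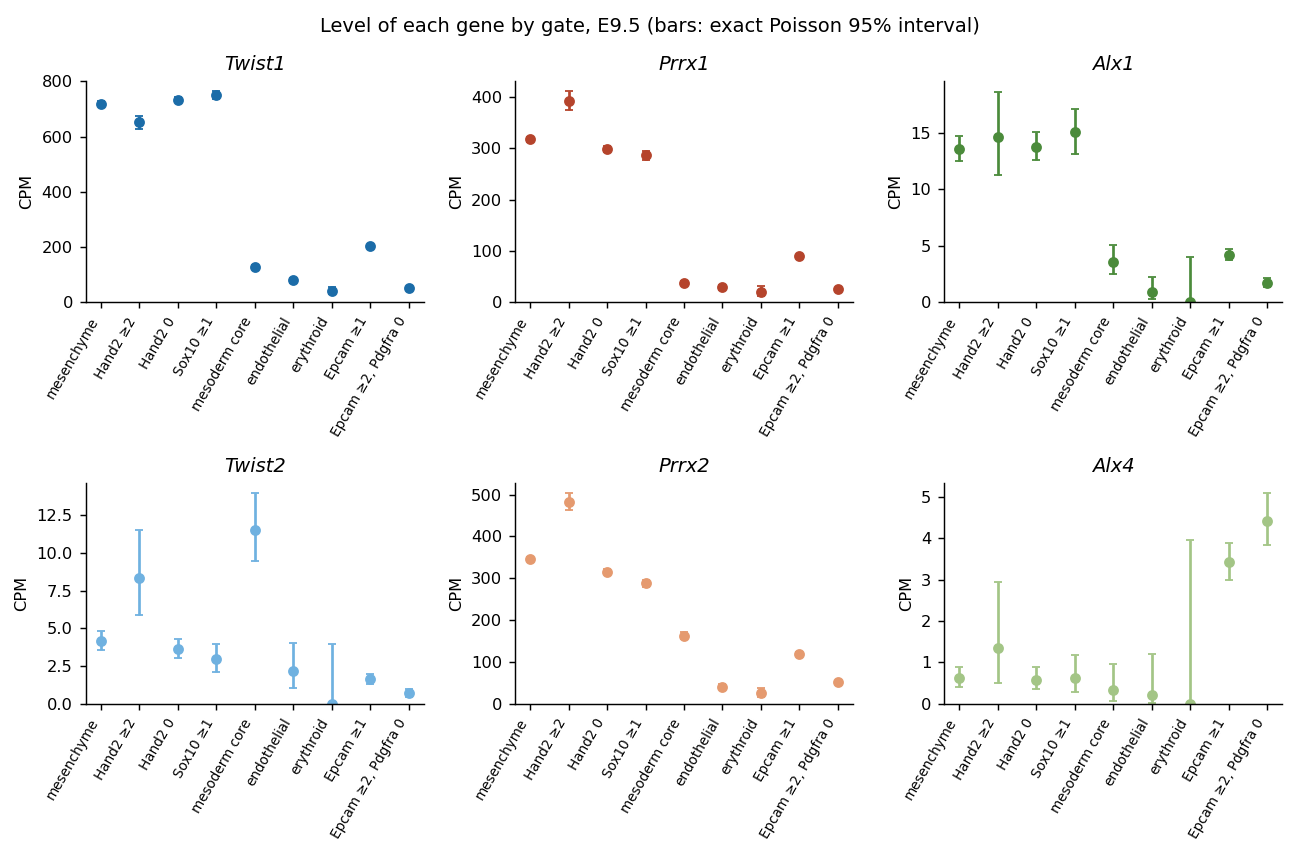
Level of each gene (CPM, linear axis from 0, a scale of its own in each panel) in 9 gates of E9.5 cells, with exact Poisson 95% intervals. Twist1, Prrx1, Prrx2 and Alx1 are high in the mesenchymal gates on the left, Twist2 has its highest point in the mesoderm core and Alx4 in the strict epithelial gate on the right.

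The first comparison asks how far each gene separates mesenchyme from epithelium. For all genes with a UMI in at least 15% of cells of either gate (7886 genes), a gene was called when its CPM differed by at least 1.3-fold and the higher gate had a UMI in 15% of its cells, which are the limits the study used for cluster markers. By this rule of size, 8.19% of the genes were higher in mesenchyme and 17.2% were lower. Twist1, Prrx1, Prrx2 and Alx1 were all called higher in mesenchyme, and Twist2 and Alx4 were in too few cells to be considered. The median log2 ratio was 1.76 over the 4 considered members and -0.04 over all considered genes.

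Twist1 fell from 719.6 CPM in mesenchyme to 203 CPM in Epcam-positive cells, a 3.54-fold difference (3.47 to 3.61). Prrx1 was 3.54-fold higher in mesenchyme (3.44 to 3.65) and Prrx2 2.88-fold (2.80 to 2.96). Among the considered genes Prrx1 ranked 5th and Twist1 7th from the highest ratio, Alx1 26th and Prrx2 47th. Alx1 was 3.25-fold higher (2.81 to 3.75), and Twist2, at 189 against 108 UMIs, was 2.56-fold higher (2.01 to 3.27). Alx4 lay in the other direction. It had 3.42 CPM (2.99 to 3.89) in Epcam-positive cells, 5.55-fold above the mesenchyme (3.74 to 8.54). These data therefore go against a mesenchymal label for Alx4 in the E9.5 mandibular arch.

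The partners and inhibitors of bHLH factors did not divide the tissues in the same way. Of the 8 listed, 7 were considered, 3 were called higher in mesenchyme and 1 lower. Tcf12 was at 224 CPM in mesenchyme and 159 CPM in Epcam-positive cells, and Id1 at 659 and 471 CPM, whereas Id4 was at 5.12 and 20.9 CPM. Among genes of the mesenchymal state 6 of 8 were called higher, led by Snai1 (log2 ratio 1.68), a repressor of E-cadherin, and Fn1 was called lower.

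The Epcam gate is not pure. Of the Epcam-positive cells, 685 also had a Pdgfra UMI and 13.3% of these were called doublets. When the cells were divided by their number of Epcam UMIs, a division chosen after values had been seen, Twist1 fell from 559.6 CPM in cells with 1 Epcam UMI to 193 CPM with 2 to 3, 71.9 CPM with 4 to 7, 38.0 CPM with 8 to 15 and 32.0 CPM with 16 or more. Prrx1 fell over the same steps from 239 to 84.9, 35.6, 19.5 and 14.5 CPM. Prrx2 fell from 281 to 124, 58.9, 42.5 and 40.2 CPM. Alx4 ran the other way, from 0.986 CPM at 1 Epcam UMI to 2.71, 4.51, 4.69 and 4.85 CPM.

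**Figure D2:**
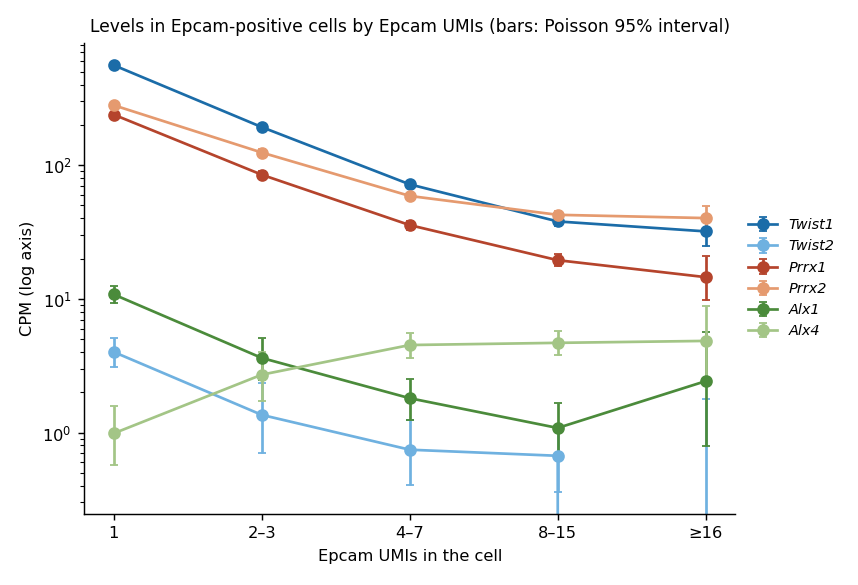
Level of each gene (CPM, log axis) in Epcam-positive cells divided by the number of Epcam UMIs in the cell, with Poisson 95% intervals. Twist1, Prrx1 and Prrx2 fall from left to right while Alx4 rises from 0.986 to 4.85 CPM, and Twist2, with 0 UMIs in the last step, has no point there.

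In the strict epithelial gate Twist1 was left with 52.1 CPM, which is 7.24% of its mesenchymal level. Prrx1 kept 7.96% and Prrx2 14.95% of theirs. Without called doublets these shares were 5.21%, 5.83% and 12.8%. The erythroid cells, which should make none of these transcripts, held Twist1 at 38.7 CPM (27.1 to 53.6), Prrx1 at 19.4 CPM (11.5 to 30.6) and Prrx2 at 25.8 CPM (16.5 to 38.4). Their median depth was 17291.5 UMIs, and a Twist1 UMI was found in 33.9% of them against 29.0% of the strict epithelial cells at a median of 12928 UMIs. Vascular cells held more Twist1, 77.9 CPM (70.01 to 86.3) with a UMI in 43.1% of cells, and their interval did not overlap the erythroid one. The vascular gate held 24 Pdgfra UMIs, and its highest cell had 29 Twist1 UMIs where the median was 0. The part of Pdgfra-positive cells in the vascular levels was not tested, so these gates give no single background level. The strict epithelial Twist1 level lay within the erythroid interval and below the vascular one. Prrx1, at 25.3 CPM (23.8 to 26.8), lay within the erythroid interval and that of vascular cells (28.6 CPM, 24.0 to 34.0). Prrx2, at 51.7 CPM (49.6 to 53.8), was above the erythroid interval and the vascular one (40.1 CPM, 34.6 to 46.3). Without called doublets it was at 44.3 CPM (42.3 to 46.4), above the erythroid interval but overlapping the vascular one. Its levels at 8 to 15 and 16 or more Epcam UMIs, 42.5 and 40.2 CPM, also lay within the vascular interval. Prrx2 UMIs per Prrx1 UMI came to 2.04 (1.90 to 2.20) in the strict epithelial gate, 1.33 (0.694 to 2.61) in erythroid cells and 1.09 (1.06 to 1.11) in mesenchyme, so the erythroid interval holds the other values. Alx1, Twist2 and Alx4 had 0 UMIs in the 56 erythroid cells, which allows a share of up to 6.38% of cells and 3.97 CPM.

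Alx4 in epithelium was examined further with gates that were chosen after its values had been seen and are given as a description. Within the strict epithelial cells it had 198 UMIs in 179 of 3321 cells. Cells with a UMI of Pax1, a gene of the pharyngeal endoderm, had 12.2 CPM of Alx4 (9.25 to 15.8), and cells without had 3.52 CPM (2.97 to 4.16). Cells with Pax9 had 9.86 CPM against 4.01 CPM without, and cells with Irx1 had 7.99 against 2.97 CPM. Cells with Foxa2, a further endodermal factor, were lower than cells without it, at 1.90 CPM against 4.66 CPM. Leaving out called doublets gave 4.60 CPM in the strict gate, compared with 4.43 CPM with them.

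In the sorted E12.0 epithelium, Alx4 was the most counted of the 6 genes, with 61 UMIs in 59 of 11355 cells, 0.783 CPM (0.599 to 1.01). Twist1 had 14 UMIs there, Prrx2 15, Prrx1 7, Alx1 3 and Twist2 2. The 725 E12.0 cells with Pax9 had no Alx4 UMI, which allows up to 0.643 CPM. The 30 cells with Pax1 had none either, but so few cells allow up to 16.5 CPM and cannot show a difference. E12.0 cells with Irx1 had 2 Alx4 UMIs, 0.151 CPM (0.0183 to 0.546), against 0.912 CPM (0.694 to 1.18) without. At E9.5 the cells with Irx1 were the higher ones. The libraries differ in stage, sorting and processing version, which cannot be told apart, so levels were not compared between them.

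The second comparison asks how the genes differ between distal, Hand2-high mesenchyme and mesenchyme without Hand2. Of 7871 considered genes, 9.2% were called higher in the Hand2-high cells and 4.33% lower. Prrx1 and Prrx2 were called higher, Twist1 and Alx1 got no call, and the other members were in too few cells. The median log2 ratio was 0.24 over the 4 considered members and 0.02 over all considered genes.

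Prrx2 rose from 316 CPM without Hand2 to 483 CPM, a 1.53-fold difference (1.46 to 1.60). Prrx1 rose from 299 to 393 CPM, a 1.31-fold difference (1.25 to 1.38) that only just passed the limit of 1.3. It fell short of it at Hand2 of 4 or more (log2 ratio 0.25) and in cells with Y-linked transcripts (0.26). Twist1 was at 733 CPM without Hand2 and 651 CPM in the Hand2-high cells, a log2 ratio of -0.17 (-0.23 to -0.12). Twist2, from 132 and 37 UMIs, stood at 3.64 CPM without Hand2 and 8.34 CPM with it, 2.29-fold higher (1.55 to 3.32). Alx1 was at 13.8 and 14.6 CPM, a ratio whose interval, 0.807 to 1.38, includes 1. Alx4 had 6 UMIs in the Hand2-high cells and 21 in the others, too few to compare.

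Divided by the number of Hand2 UMIs, Prrx2 stood at 316 CPM with none, 444 with 1, 495 with 2 to 3 and 477 with 4 to 7. Prrx1 stood at 299, 387, 409 and 363 CPM over the same steps. Most of the difference in both genes was thus present with the first Hand2 UMI, and the upper steps overlap in their intervals for Prrx2. Twist1 stood at 733, 681, 688 and 587 CPM. Twist2 stood at 3.64, 4.19, 6.48 and 13.2 CPM, the last with an interval of 7.71 to 21.2 from 17 UMIs. A further 4 cells had 8 or more Hand2 UMIs, and Prrx2 was at 30.7 CPM in them (3.72 to 111).

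**Figure D3:**
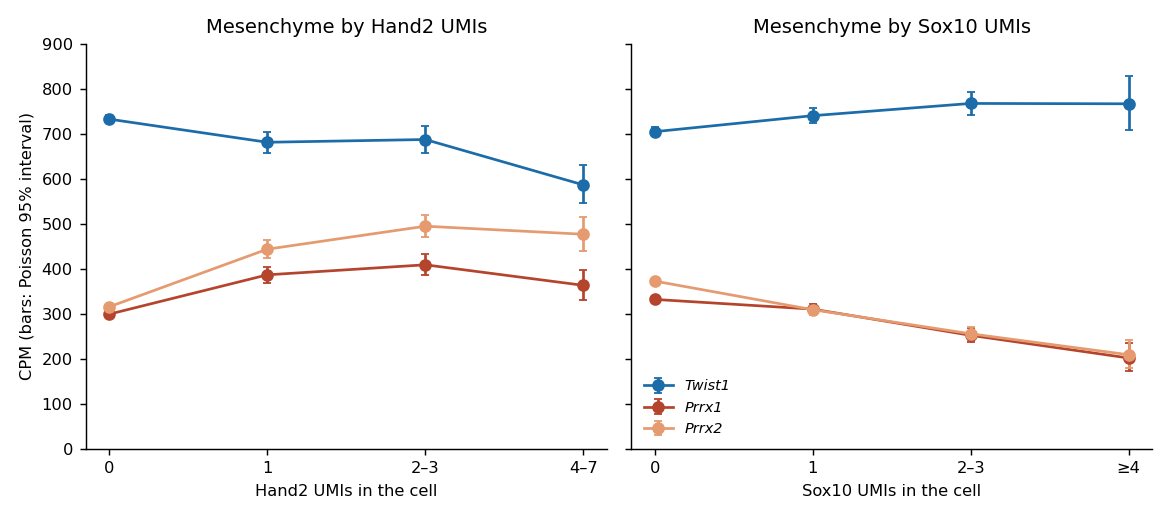
Level (CPM, linear axis from 0) of Twist1, Prrx1 and Prrx2 in mesenchyme divided by Hand2 UMIs up to 7 (left) and by Sox10 UMIs (right), with Poisson 95% intervals. Prrx2 climbs from 316 to 444 CPM with the first Hand2 UMI, and Prrx1 and Prrx2 descend to 202 and 209 CPM at 4 or more Sox10 UMIs while Twist1 lies between 705 and 768 CPM over the Sox10 steps.

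Other arch factors moved with Hand2. All 5 considered distal factors were called higher (Dlx3, Dlx5, Dlx6, Msx1 and Msx2), from a log2 ratio of 0.39 for Dlx5 to 1.76 for Msx2. Of the proximal or oral factors Barx1 was called higher and Dlx1 and Nr2f1 lower, among 5 considered. Erbb3 and Ets1, genes of migrating crest, were called lower. Of 5 considered skeletal and matrix genes, 2 were called higher, the fibrillar collagen genes Col1a1 (4.08 to 55.9 CPM) and Col1a2 (53.7 to 130.02 CPM), and 1 lower, the cartilage collagen gene Col2a1 (81.9 to 61.3 CPM), with a median log2 ratio of -0.10. The bHLH partners Tcf4 and Tcf12 were called lower, at log2 ratios of -0.47 and -0.56, while the inhibitor Id2 was called higher at 0.56.

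Markers of other cells moved with the Hand2 gate as well. The 6 epithelial markers summed to 290.0 CPM (274 to 306) in Hand2-high cells and 55.9 CPM (53.5 to 58.3) in cells without Hand2, mostly through Krt8 and Krt18, and none of the 6 was at 0. The 4 cardiac markers summed to 60.6 CPM (53.6 to 68.3) against 8.69 CPM (7.75 to 9.70), mostly through Isl1. Their sum was higher still in the strict epithelial gate, at 127 CPM (124 to 130), so these markers were not particular to heart cells here. The paper names Isl1 as a known marker of the medial mandible. In the 75 cells with 4 or more Hand2 UMIs the epithelial sum was 573 CPM and the cardiac sum 127 CPM. Both were thus higher than in the whole Hand2-high gate, and their part in the values by Hand2 step was not tested. In alternatives added after values had been seen, cells with a Krt8 or Krt18 UMI were left out, which left 110 Hand2-high cells. The epithelial sums were then 11.1 and 11.3 CPM. Both keratin genes belong to the 6 summed markers, so this choice set their part of the sums to 0. The fall therefore cannot show how much epithelium was left in either gate. With these cells left out, Prrx2 stood at 575 against 318 CPM (log2 ratio 0.86) and Prrx1 at 424 against 308 CPM (0.46). Leaving out cells with a cardiac marker left 165 Hand2-high cells, and their epithelial sum was also lower, at 65.0 CPM. The log2 ratios were then 0.83 for Prrx2 and 0.50 for Prrx1. The part of other cell types in the Prrx differences was not tested. Alx1 fell below the Hand2-negative level after either exclusion, at log2 ratios of -0.73 and -0.41. It was called lower there, where 7.78% and 6.48% of all genes were, while the Twist1 ratio moved to -0.05 and -0.02. Twist2 moved to 0.83 and 0.57. When cells were thinned to 6000 UMIs before gating, 62 cells remained Hand2-high with epithelial markers at 648 CPM, and neither Prrx gene was called, at log2 ratios of -0.05 for Prrx2 (317 against 329 CPM) and 0.01 for Prrx1. Twist1 was then called lower at -0.59 and Alx1 higher at 1.17, in a comparison where 13.5% of all genes were called lower and 23.8% higher. Alx1 had only 65 UMIs in the full Hand2-high gate, and no interval was made for the ratios of these alternatives. The sign of the Alx1 difference is therefore not settled.

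The third comparison sets mesenchyme with Sox10 against mesenchyme without it. Calls were rare, 1.35% of 7723 genes higher and 1.79% lower, and no member was called. Prrx2 was at 287 CPM in Sox10-positive and 373 CPM in Sox10-negative cells, 1.297-fold lower (1.252 to 1.344), just short of the limit. Prrx1 was at 287 and 332 CPM, 1.16-fold lower (1.12 to 1.20). Twist1 was at 750.3 and 705 CPM, and had a UMI in all 773 Sox10-positive cells. The median log2 ratio was -0.06 over the 4 considered members and 0.01 over all considered genes.

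The difference in the Prrx genes was larger in cells with more Sox10. Prrx1 was at 311 CPM with 1 Sox10 UMI, 252 CPM with 2 to 3 and 202 CPM with 4 or more. Prrx2 was at 309, 256 and 209 CPM over these steps, so the genes kept equal counts, with 1.00 Prrx2 UMI per Prrx1 UMI (0.960 to 1.05) over all Sox10-positive cells. Twist1 was at 741, 768 and 767 CPM. With the gate set at 2 or more Sox10 UMIs (262 cells) Prrx1 and Prrx2 were called lower, at log2 ratios of -0.44 and -0.59, and Alx1 was called higher at 0.48. Over all genes, 4.42% were called higher and 3.8% lower with that gate. Alx1 had 15.04 CPM in Sox10-positive and 12.9 CPM in Sox10-negative cells with a ratio interval of 0.984 to 1.38, and its sign differed between embryos of either sex (log2 ratio -0.44 and 0.49). Sox10-positive cells also had lower distal factors, with Dlx5, Dlx6, Msx1 and Msx2 all called lower among 4 considered, and higher Erbb3 and Ets1. Krt8 and Krt18 were called lower in them, and their part in the members' values was not tested.

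The fourth comparison sets the mesoderm core against the mesenchyme, which overlap by the 48 cells named above. Of 7810 considered genes 15.2% were called higher in the core and 9.73% lower. All 4 considered members were called lower, with a median log2 ratio of -2.22 against 0.03 over all considered genes, but by very different amounts.

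Prrx1 was lowest in proportion, at 36.9 CPM (33.1 to 41.0) in the core against 318 CPM, 8.61-fold lower (7.73 to 9.62). Twist1 was at 126 CPM, 5.72-fold lower (5.39 to 6.07), and Alx1 at 3.59 CPM, 3.79-fold lower (2.67 to 5.55). Prrx2 was at 162 CPM (154 to 170.3), 2.13-fold lower (2.02 to 2.25), and kept a UMI in 76.5% of core cells where Prrx1 had one in 25.3%. Twist2 lay in the other direction, with 106 UMIs in 693 core cells, 11.5 CPM (9.44 to 13.9), 2.77-fold above the mesenchyme (2.17 to 3.54). Alx4 had 3 UMIs in the core.

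In the 645 core cells without Pdgfra, where 1.24% were called doublets, Prrx1 was at 25.4 CPM (22.1 to 29.1), within the erythroid interval. Prrx2 was at 149 CPM (141 to 157) and Twist1 at 101 CPM (94.2 to 108), both above the erythroid intervals and above the vascular levels of 40.1 and 77.9 CPM. Twist2 was at 12.3 CPM (10.1 to 14.98) there. The vascular cells had 2.17 CPM of Twist2 (1.04 to 3.99), and the strict epithelial cells 0.694 CPM (0.471 to 0.985). After thinning to 6000 UMIs a Twist2 UMI was found in 6.27% of core cells and 2.32% of mesenchymal cells, and a Prrx2 UMI in 54.8% and 80.1%.

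The relation of the Prrx genes to each other therefore differed by tissue. There were 4.39 Prrx2 UMIs per Prrx1 UMI in the core (3.90 to 4.95) and 5.85 in core cells without Pdgfra (5.05 to 6.81), against 1.09 in mesenchyme (1.06 to 1.11). UMIs count transcript 3′ ends and are not divided by length, and capture may differ between genes, so this ratio is compared between gates only. Within mesenchyme it was 1.23 (1.15 to 1.31) in Hand2-high cells, 1.05 (1.03 to 1.08) in cells without Hand2 and 1.00 in Sox10-positive cells. Vascular cells, whose gate did not exclude Pdgfra, stood at 1.40 (1.11 to 1.77), nearer to the mesenchyme than to the core. Core cells from embryos with Y-linked transcripts and those from embryos with Xist, which are different embryos of the pool, had ratios of 3.47 (2.66 to 4.58) and 5.27 (4.47 to 6.25).

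**Figure D4:**
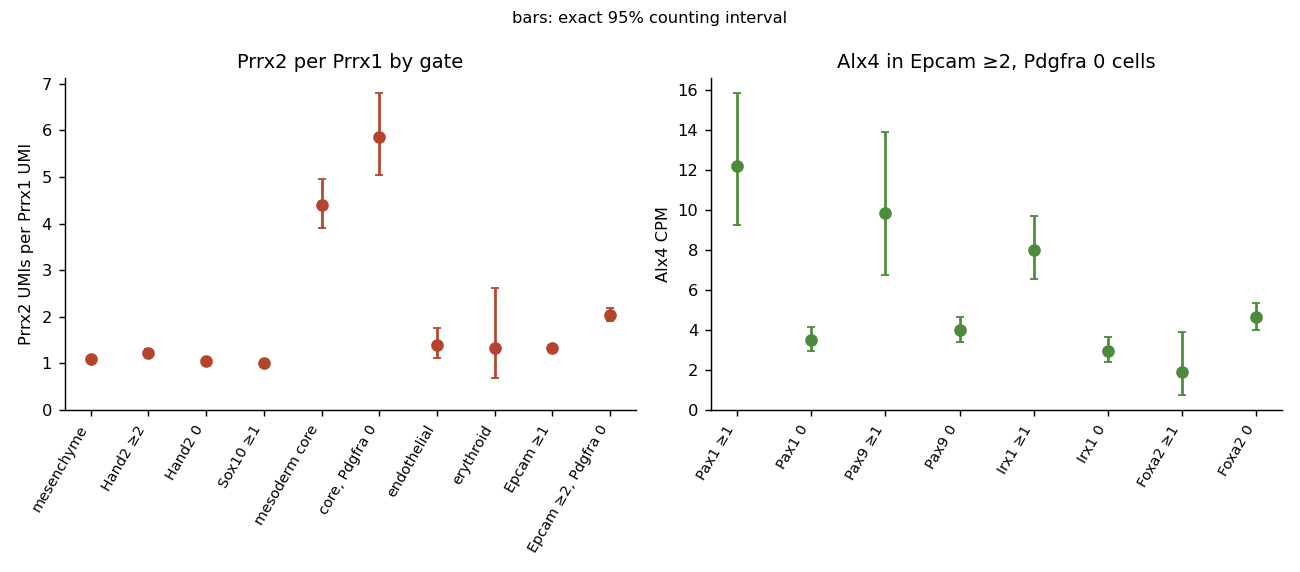
Left, Prrx2 UMIs per Prrx1 UMI in 10 gates, near 1 in the mesenchymal gates and at 4.39 and 5.85 in the core gates. Right, Alx4 level (CPM) in strict epithelial cells with and without a UMI of each of 4 genes, highest with Pax1 (12.2 CPM) and lowest with Foxa2 (1.90 CPM). Bars are exact 95% counting intervals and both axes start at 0.

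Among the listed genes of the arch, all 4 considered distal factors and all 5 considered proximal or oral factors were called lower in the core, from a log2 ratio of -0.97 for Meis2 to -3.40 for Dlx5. The genes of the mesenchymal state split. Snai2, Zeb1, Cdh2 and Fn1 were called higher in the core, and Snai1, Vim and Cdh11 lower. Of the bHLH partners Tcf3, Tcf4 and Tcf12 none was called, with log2 ratios between -0.26 and 0.24. The inhibitor Id2 was higher at 607 against 253 CPM, and Id1 and Id3 were lower. Cardiac markers were higher in the core, at 102 CPM against 17.0 CPM in mesenchyme, with Nkx2-5 and Isl1 both called. They summed to 127 CPM in the strict epithelial gate, and their part in the members' differences was not tested.

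**Figure D5:**
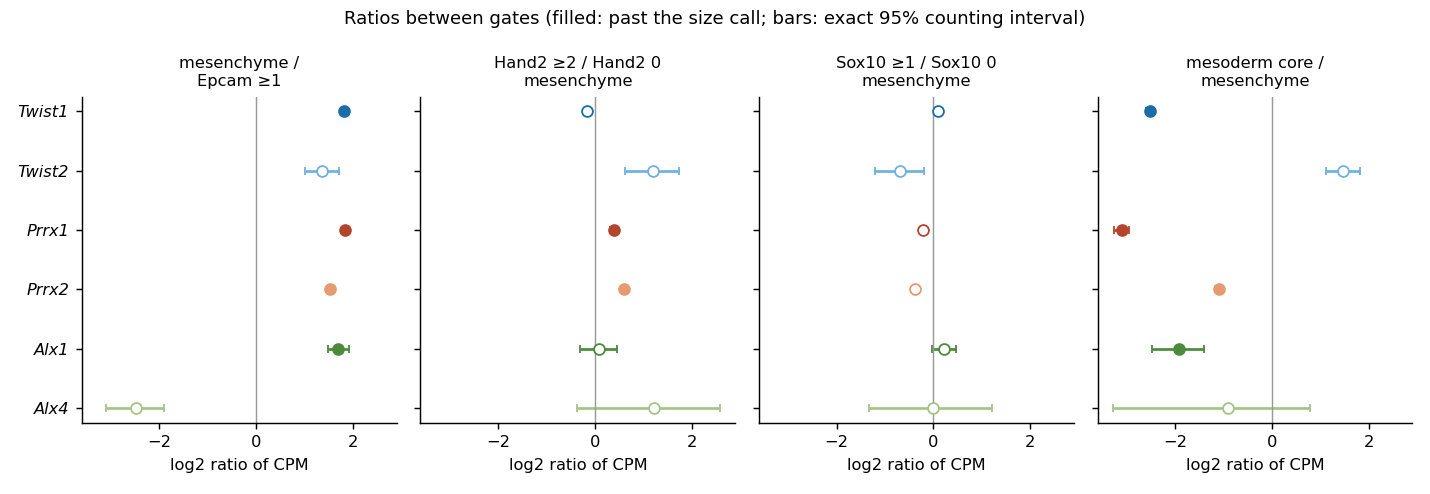
Log2 ratio of CPM for each gene in the 4 comparisons, with exact 95% counting intervals. Filled points passed the rule of size (1.3-fold, and a UMI in 15% of cells of the higher gate), and the line marks equal levels. Twist2 and Alx4 are open throughout because they were in too few cells, and in the core comparison Twist2 (1.47) lies opposite to Prrx1 (-3.11).

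Pairs of members were also compared cell by cell within the mesenchyme, after thinning. The share of cells with both genes of a pair was set against the product of the shares of each. In thinned cells, for none of the 15 pairs did the interval of this ratio lie wholly above or below 1. That interval covers the joint share only, takes the product as a constant and is too wide for genes found in most cells. It therefore does not decide whether a pair departs from 1. Prrx1 and Prrx2 were found together in 1638 of 2541 cells, 1.02 times the product (0.992 to 1.05). The ratio has little room to rise for genes found in most cells, and few cells to rest on for the rest. Alx1 and Alx4 shared 1 cell. Across the 2541 cells Spearman correlations of thinned counts, all from 1 library at equal depth, lay between -0.03 and 0.17, with the highest for Prrx1 and Prrx2, which is weak in counts this sparse.

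Genes most like each member were sought over 10 gates that share no cells, as Pearson correlation of log2(CPM + 1) among 10255 genes with at least 500 UMIs. With 10 points of 1 library the order among near-equal correlations carries little weight. The 3 highest were Rsl24d1 (0.998), Psmd10 and Nkd2 for Twist1, Vldlr (0.955), Rps6kb2 and Nkd1 for Twist2, and S1pr3 (0.991), Cited1 and Gm26523 for Prrx1. They were Atoh8 (0.989), Ahsa1 and Pcolce for Prrx2, Cacybp (0.993), Pdgfrb and Dixdc1 for Alx1, and Cacna1b (0.948), Scyl2 and Pax1 for Alx4. Pax1 was at 20.8 CPM in strict epithelial cells and 0.660 CPM in mesenchyme. Correlation does not measure the size of a difference. Rsl24d1 was at 179 CPM in mesenchyme and 122 CPM in strict epithelial cells, where Twist1 was at 719.6 and 52.1 CPM. Cacybp was at 847 and 636 CPM in these gates, whereas Pdgfrb was at 55.9 and 6.20 CPM.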

How the data were processed

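Deposited values are UMI counts per gene and cell barcode, made by the authors with Cell Ranger from 10x 3′ V3 libraries. The labels name Cell Ranger 2.0.0 and mm10 (GRCm38), while the file headers name 3.1.0 for E12.0 and 6.1.2 for E9.5. Each stage has 1 library, and all counts were used as deposited, with the study's filter of 200 to 5500 genes and at most 10% mitochondrial UMIs.

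Groups of cells were gates on UMIs of marker genes, not clusters. CPM is UMIs of a gene summed over a gate per 1000000 UMIs of the gate, and kept cells summed to 166191431 UMIs at E9.5 and 77936364 at E12.0. Intervals are exact (Poisson, Clopper-Pearson, and conditional for ratios, 95%). In calls over all genes a gate with 0 UMIs entered as 3 counts. Thinning used a seed of 1, and left out 2510 cells under 6000 UMIs. Scrublet in scanpy 1.11.5 called 331 doublets at a score of 0.278, which stayed in the main gates. Python 3.11.15, numpy 2.4.6, scipy 1.17.1, pandas 2.3.3 and matplotlib 3.10.9 were used. The rule of size was checked on simulated counts.

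Members, gene lists and gates were chosen with earlier results of these data known. Genes named are the members, the extremes of the lists, and the 3 genes most like each member. Alternatives changed the cell filters, weighting, depth, gates, fold and share of cells. Embryos of either sex were told apart by Xist and by Uty, Ddx3y, Kdm5d and Eif2s3y. Results for a few listed genes are not reported here.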

Additional observations from a re-analysis of the deposited data

Results flagged for a closer look

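Transcripts of 4 members rose above the limit of a count of 0 (3 UMIs) in the E12.0 library, which enters none of the comparisons and was sorted for epithelium. Alx4 had 61 UMIs, Prrx2 15, Twist1 14 and Prrx1 7 in 11355 cells. Pdgfra had 39 UMIs in 37 of these cells, and none of those 37 cells held a UMI of any member. So few cells allow up to 12.0 CPM for each member and cannot show a difference.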

How the results depend on the processing

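No paired analysis was possible because each stage has 1 library, and for the same reason no replicate could be left out. Depth limits Twist2, Alx1 and Alx4 most. In mesenchyme against Epcam-positive cells, Twist1, Prrx1 and Prrx2 were called higher in all 13 alternatives, with log2 ratios from 1.61 to 4.27 for Twist1 and from 1.60 to 4.06 for Prrx1, while Alx1 was in too few cells to be considered after thinning. These genes were called lower in the core in all 14 alternatives there, and Alx1 in all but thinning. Over all genes, 1.7% to 12.8% were called higher in mesenchyme in the alternatives of the former comparison. In those of the core, 2.09% to 12.8% were called lower.

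In the Hand2 comparison 2 members were called higher and 0 lower. Thinning to 6000 UMIs gave 1 higher (Alx1) and 1 lower (Twist1) and turned Prrx2 to a log2 ratio of -0.051. Prrx1 lost its call, leaving 1 higher, in cells with Y-linked UMIs, with Pdgfra of 2 or more, and without core and Sox10 cells. It also lost it at Hand2 of 4 or more (0.25) and with no upper limit of genes (0.30), where Twist2 was called instead, and a fold of 2 gave 0. Leaving out cells with Krt8 or Krt18, or with cardiac markers, gave 1 lower each (Alx1).

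In the Sox10 comparison, with 0 called, leaving out doublets and taking Sox10 cells whatever their Pdgfra each gave 1 lower (Prrx2), as did cells with Y-linked UMIs (Alx1) and a share of 5% of cells (Twist2). Cells with Xist gave 1 higher and 1 lower, and Sox10 of 2 or more gave 1 higher and 2 lower. In the core comparison, no upper limit of genes and a share of 5% each gave 1 higher (Twist2), where 14.2% and 20.6% of all genes were called higher. Pairs of genes with the interval of the joint share wholly above the product were 2 in unthinned cells and 3 where each gene needed 2 UMIs. The share of all genes called moved too, in the Hand2 comparison from 2.06% to 23.8% higher and 0.559% to 13.5% lower, and in the Sox10 comparison from 0.0518% to 6.18% and 0.22% to 5.39%. With Sox10 of 2 or more it was 4.42% and 3.8%, in cells with Xist 2.12% and 2.77%, and in cells with Y-linked UMIs 6.18% and 3.97%, so these counts of members cannot be read against the main shares. The cause was not tested.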
